A study of Mus musculus with 8 samples.

Results

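The genes described here build the machinery that imports proteins into mitochondria, folds and seals the inner membrane, admits calcium, and fuses or divides the organelles. They were taken from the deposited expression table by type and symbol, as protein-coding genes named Timm, Tomm, Grpel, Apoo, Micu, Letm, Mief or Mtfr with any ending, together with Pam16, Dnajc19, Hspa9, Immt, Chchd3, Chchd6, Mcu, Mfn1, Mfn2, Opa1, Oma1, Yme1l1, Dnm1l, Fis1, Mff, Mtfp1, Phb and Phb2. This gave 59 of the 54532 genes in the table, of which 22046 were protein-coding. The rule itself used no measured value, but it was chosen with earlier results of these data known. The data were 8 samples of mouse brown adipose tissue, a heat-producing fat, profiled by RNA sequencing. They formed 2 groups of 4, wild type (WT, treatment label control) and OGTBKO, in which brown adipocytes were to lose Ogt, the gene of the enzyme that adds O-linked N-acetylglucosamine to intracellular proteins. The protocol is the same text for both groups: mice were kept at 23 °C on standard chow, induced after 8 weeks with an agent spelled gomaxifen in the labels, and gave tissue 2 months later. The sources used here do not give the promoter behind the deletion, the deleted exons, or the animals' age and sex. Since the labels number the samples without naming separate animals, every p-value reflects only how far these samples spread, which may be technical.

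Most mitochondrial proteins are made in the cytosol and enter through the TOM complex of the outer membrane. Carrier proteins are then escorted by the small TIM chaperones to the TIM22 translocase, and proteins with a presequence pass through TIM23, pulled inward by a motor built on the chaperone that Hspa9 encodes. In the inner membrane, MICOS proteins shape cristae, prohibitins form ring scaffolds, and the uniporter lets calcium in under the control of regulatory subunits. Mitofusins and OPA1 fuse mitochondria, the proteases OMA1 and YME1L cut OPA1, and the dynamin DRP1, encoded by Dnm1l, divides them after adaptors recruit it. Brown adipocytes are packed with mitochondria and are known to remodel them when heat production is switched on.

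Between 13393962 and 15897920 reads fell in genes in each library. Ogt lay between 22.5 and 33.1 FPKM (fragments by length in kilobases and by library depth) in WT libraries and between 10.7 and 14.5 FPKM in OGTBKO libraries (log2 -1.03, limma adjusted p = 0.00511). All 8 brown adipocyte markers were detected. Their summed level was 2851 to 4282 FPKM in WT and 2771 to 3165 FPKM in OGTBKO tissue, and 4 of the 8 were called lower in OGTBKO. Those not called lay on both sides of 0, Cidea (log2 -0.07) and Dio2 (log2 -0.96) below, Elovl3 (log2 1.75) and Cox8b (log2 0.64) above. White adipocyte markers, 7 genes with Tcf21 at 0 throughout, summed to 53.2 to 126 FPKM in WT and 156 to 209 FPKM in OGTBKO, without overlap (exact two-sided permutation p = 0.0286, the smallest that 4 against 4 allows), and 2 of the 5 tested were called higher. Skeletal muscle markers, 8 genes, summed to 427 FPKM in WT 1 and 1282 FPKM in OGTBKO 1, while WT 2 to WT 4 held 0.481 to 33.7 FPKM and OGTBKO 2 to OGTBKO 4 held 0.976 to 5.67 FPKM. The sums of 8 endothelial markers (113 to 156 and 141 to 151 FPKM), 8 macrophage markers (178 to 354 and 244 to 565 FPKM), 8 fibroblast markers (259 to 332 and 181 to 475 FPKM), 7 lymphocyte markers (2.17 to 3.06 and 2.52 to 4.42 FPKM) and 8 nerve and Schwann cell markers, with Dbh at 0 (46.7 to 65.2 and 38.8 to 50.7 FPKM), overlapped between WT and OGTBKO. Within these lists Cdh5 of endothelium was called higher (adjusted p = 0.0413) and Cdh19 of Schwann cells lower (adjusted p = 0.0272). The part of these other cells in the results below was not tested, apart from fits without both libraries numbered 1, which were added after seeing the data. In bulk tissue fewer cells of a type cannot be told apart from less RNA per cell.

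Genes of import and dynamics changed in both directions. Of the 59 genes, 55 averaged 0.5 FPKM or more across the libraries and were tested. In the limma fit over all genes, 12 of these 55 passed an adjusted p of 0.05, 5 higher and 7 lower in OGTBKO. Of all 13171 genes tested 15.6% were called, 8.11% higher and 7.46% lower. WT and OGTBKO values were fully separate for 12 of the 55 members, 6 in each direction, and for 22.5% of all genes (11.1% higher and 11.4% lower). The median log2 difference was -0.036 over the members and -0.00213 over all genes. By role, 4 of 8 tested fission genes fell and 0 rose. In the TIM23 translocase and its motor 2 of 11 rose and 1 fell, and among small TIM chaperones and TIM22 2 of 8 rose. Of the 5 fusion genes and inner membrane proteases 1 rose and 1 fell, and 0 of 8 TOM genes and 0 of 7 genes of cristae and prohibitins passed. At an unadjusted p under 0.05 the counts in these 2 groups were 2 of 8 and 1 of 7. The share of all genes at that level was not counted, so no excess can be read from these counts.

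**Figure D1:**
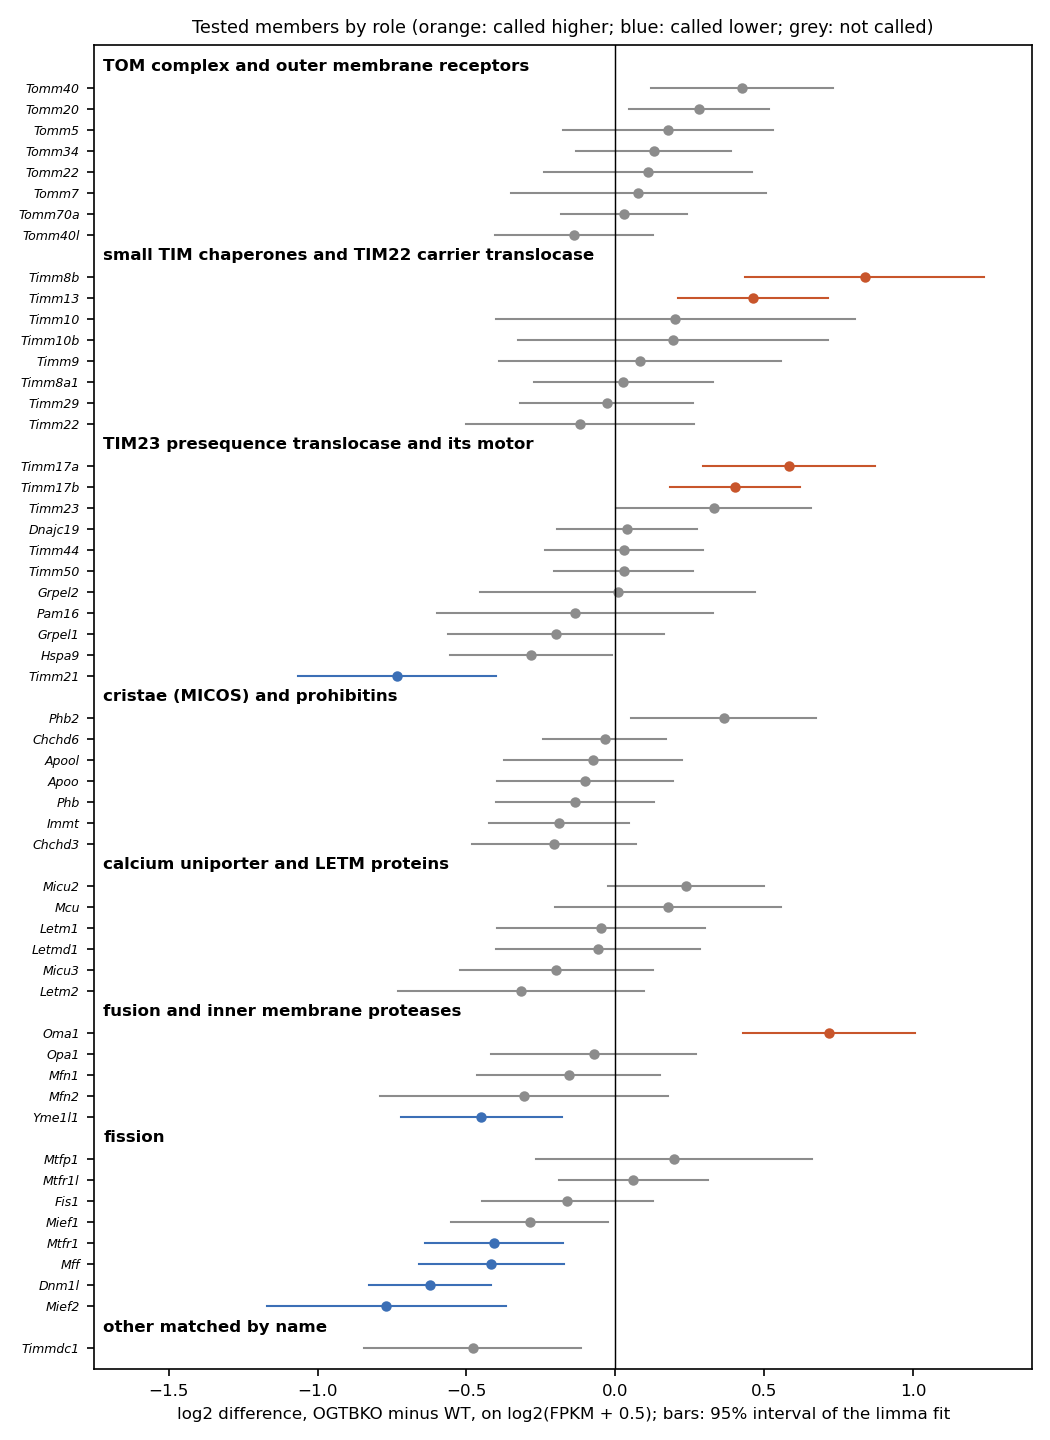
Log2 difference (OGTBKO minus WT, x axis, on the log2(FPKM + 0.5) scale) of 54 of the 55 tested members, grouped by role on the y axis, with 95% intervals of the limma fit. Genes called higher are in orange (5), genes called lower in blue (6), and 4 of the blue points lie in the fission group.

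Promoters of the members are shown because partner genes moved in opposite or like directions. RefSeq promoter sequences of GRCm38.p6 (250 bases before to 50 after the start) matched 50 of the 59 members. Below are 110 bases before the start for the proteases Oma1 (chr4:103313736-103313845, plus strand), called higher, and Yme1l1 (chr2:23156395-23156504, plus strand), called lower. The Yme1l1 call was lost in 7 fits with 1 library left out. The same stretch is shown for Timm8b (chr9:50603791-50603900, plus strand) and for 1 start of Dnm1l (chr16:16358576-16358685, minus strand). For Timm13, the partner of Timm8b, the stretch from -210 to -101 is given (chr10:80901070-80901179, minus strand). Capitals mark the motifs searched.
Oma1: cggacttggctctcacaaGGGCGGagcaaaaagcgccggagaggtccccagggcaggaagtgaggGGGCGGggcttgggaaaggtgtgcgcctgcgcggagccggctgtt
Yme1l1: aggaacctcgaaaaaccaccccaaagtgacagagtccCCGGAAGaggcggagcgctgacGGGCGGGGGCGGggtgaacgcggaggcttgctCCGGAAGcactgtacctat
Timm8b: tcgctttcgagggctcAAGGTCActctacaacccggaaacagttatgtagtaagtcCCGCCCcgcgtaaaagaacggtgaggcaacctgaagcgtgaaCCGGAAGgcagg
Timm13: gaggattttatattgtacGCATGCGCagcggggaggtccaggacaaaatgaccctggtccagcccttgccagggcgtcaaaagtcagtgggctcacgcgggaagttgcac
Dnm1l: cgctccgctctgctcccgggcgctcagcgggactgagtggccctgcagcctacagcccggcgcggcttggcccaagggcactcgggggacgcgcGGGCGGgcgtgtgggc
The motifs were searched on both strands, a match being a description and not a site: ETS CCGGAAG, SP1 GGGCGG, NRF1 GCGCATGC, ERR TGACCTT, YY1 AAGATGGC, E-box CACGTG and the heat shock element. With positions counted from the start, Yme1l1 held the ETS letters at -73 and -19 around 2 adjoining SP1 boxes, and Timm8b held them at -12, with the ERR letters in reverse at -94. Oma1 held SP1 boxes at -92 and -45 and no ETS letters in the stretch shown. In Timm13 the NRF1 letters lay in reverse at -192.

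Over the whole windows, the ETS letters were in 21 of the 50 matched members (42%) and in 12.9% of 17492 protein-coding genes. The latter were taken whether or not they were expressed in this tissue, so they are not a like set for the mostly expressed members. SP1 boxes were in 31 members (62%) and 49.2% of genes, and E-boxes in 8 members (16%) and 8.91% of genes. The NRF1 letters were in Grpel1, Mtfr2, Opa1 and Timm13 (8% against 3.94%), and the ERR letters in Chchd6, Timm23, Timm44 and Timm8b (8% against 4.73%). YY1 letters were in 2 members (4% against 3.57%) and heat shock elements in 1, Timm9 (2% against 0.595%). The median GC content was 59.5% over the members' promoters and 56.3% over all. Of the 5 genes called higher 1 held the ETS letters and of the 4 called lower with a matched promoter 2 did.

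FPKM is a value per length, so levels of different genes can be set beside each other only roughly. The length was that of all annotated exons joined, as for Immt (11353 bases), and need not be that of the transcripts present. Hspa9 was the highest, with a mean of 262 FPKM over the 8 libraries, ahead of Letmd1 at 124 FPKM. Timm8b at 69.6, Phb at 66.0, Apoo at 64.7, Mfn2 at 63.0 and Chchd3 at 60.4 FPKM followed. The place of Timm8b depended on the group, with means of 50.5 FPKM in WT and 88.8 FPKM in OGTBKO, beside 69.2 and 62.7 FPKM for Phb. Phb, Apoo, Mfn2 and Chchd3 do not differ beyond their spread between libraries. The channel gene Mcu came at only 3.23 FPKM, and its regulator Micu3 at 3.97 FPKM. Oma1 stood at 4.66 FPKM, below its partner protease Yme1l1 at 14.0 FPKM and far below their common substrate Opa1 at 40.9 FPKM. The last of the tested members were Timm10b at 1.30 FPKM and Letm2 at 0.611 FPKM.

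Tomm6, Tomm20l, Timm8a2 and Mtfr2 stayed under the limit for testing. Mtfr2 ranged from 0.0441 to 0.314 FPKM in WT and from 0.0671 to 0.234 FPKM in OGTBKO. Tomm20l and Timm8a2 were each listed at 0 in 7 of the 8 libraries. Tomm6, a small subunit of the TOM complex, reached at most 0.275 FPKM, while its fellow small subunit Tomm5 averaged 52.9 FPKM. In GENCODE M21, 84.2% of the exon bases of Tomm6 are shared with another gene model, 859 of 1131 with Gm21981 on the same strand. Gm21981 itself was at 0.0530 FPKM in WT 1 and at 0 in every other library. How the authors' counting treated reads in the shared bases is not known. For Tomm40l the shared portion was 64.3%, all with Nr1i3 on the opposite strand.

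The 4 fission genes that fell in OGTBKO tissue were Dnm1l, Mief2, Mff and Mtfr1. Dnm1l, the gene of the dynamin that constricts and cuts mitochondria (ENSMUSG00000022789, chromosome 16, 16312230 to 16358959, minus strand, mm10), measured 25.9, 26.9, 28.6 and 26.6 FPKM in WT 1 to WT 4 and 16.4, 18.2, 16.2 and 18.8 FPKM in OGTBKO 1 to OGTBKO 4. Every OGTBKO library lay well below every WT library. WT averaged 27.0 ± 1.17 FPKM and OGTBKO 17.4 ± 1.29 FPKM (SD, n = 4 in each), and the gene fell by 0.62 on the log2 scale (SE 0.09, limma adjusted p = 0.00554). With each single library left out, the adjusted p of Dnm1l stayed between 0.00904 and 0.0243. When each library's dependence on GC content and gene length was removed (trend removal, from here on), the difference was smaller, a log2 of -0.40 (adjusted p = 0.0162), and with the replicate number as a block besides, the call was lost (adjusted p = 0.0722). Its exons share 4.67% of their bases with an antisense model, Gm49521.

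Mief2, which encodes an outer membrane receptor for DRP1, measured 10.2, 15.1, 13.1 and 12.8 FPKM in WT and 10.1, 6.47, 7.29 and 5.71 FPKM in OGTBKO libraries. The groups did not overlap, but nearly met at the libraries numbered 1, those with the muscle markers. Mief2 fell by 0.77 (SE 0.18, adjusted p = 0.0237), and without both libraries numbered 1 the log2 difference was -1.02 (adjusted p = 0.00903). The call was lost without WT 2, WT 4, OGTBKO 2, OGTBKO 3 or OGTBKO 4, one at a time (adjusted p 0.0544 to 0.0706). Its relative Mief1 measured 5.95 ± 0.642 and 4.79 ± 0.592 FPKM and did not pass (log2 -0.29, 95% interval -0.55 to -0.02, adjusted p = 0.123).

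Mff, the tail-anchored adaptor that recruits DRP1, measured 13.4, 11.9, 9.88 and 11.4 FPKM in WT and 8.03, 8.99, 8.28 and 8.95 FPKM in OGTBKO libraries. The lowest WT library, WT 3, was still above the highest OGTBKO library. The gene fell by 0.42 (SE 0.11, adjusted p = 0.0336), a call kept among the single-library omissions only without WT 3 (adjusted p 0.0539 to 0.0929 in the other 7). After trend removal, the log2 difference of Mff was -0.045 (adjusted p = 0.836). Mtfr1, a regulator of fission, measured 9.40, 11.6, 10.0 and 11.8 FPKM in WT and 8.05, 7.63, 7.48 and 8.53 FPKM in OGTBKO libraries, again without overlap. It fell by 0.41 (SE 0.10, adjusted p = 0.0307). The Mtfr1 call was lost without WT 2, WT 4 or any 1 of the 4 OGTBKO libraries (adjusted p 0.0529 to 0.0899), and after trend removal (log2 -0.28, adjusted p = 0.0934).

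The other tested fission genes did not pass. Fis1, an outer membrane protein of the fission machinery, had means of 13.9 and 12.3 FPKM, Mtfr1l 17.4 and 18.2 FPKM, and Mtfp1, an inner membrane fission protein, 16.6 and 18.6 FPKM in WT and OGTBKO. Their log2 differences were -0.16, 0.06 and 0.20. The widest of their 95% intervals was that of Mtfp1, -0.27 to 0.66.

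**Figure D2:**
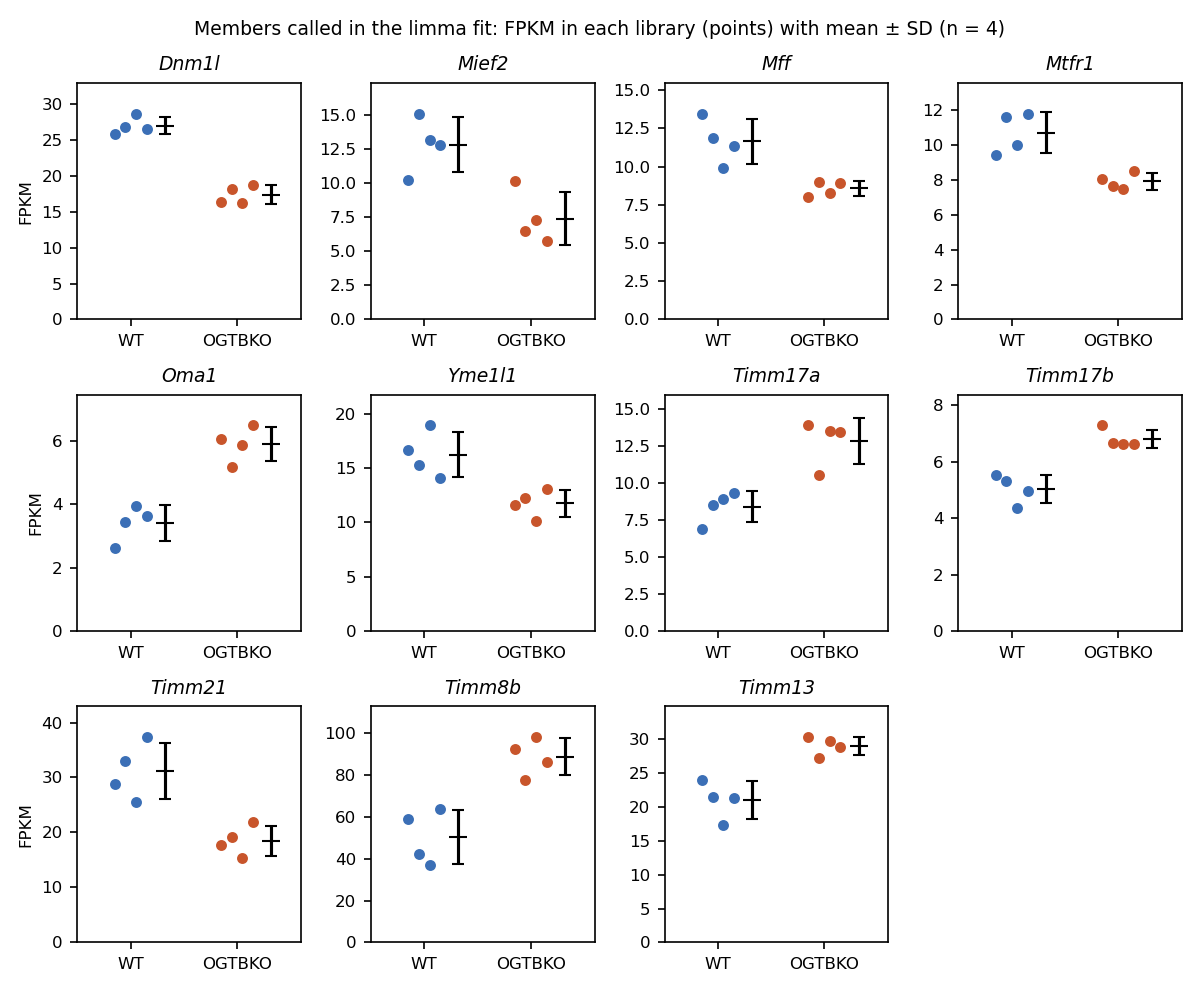
FPKM (y axis) of 11 called members in each of the 4 WT (blue) and 4 OGTBKO (orange) libraries, with mean ± SD beside the points. Groups are apart in each of the 11 panels, and are closest for Mief2, at 10.1 FPKM in OGTBKO 1 and 10.2 FPKM in WT 1.

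The proteases that cut OPA1 moved in opposite directions. Oma1, whose product is switched on by mitochondrial stress and then cleaves OPA1 (ENSMUSG00000035069, chromosome 4, 103313812 to 103371868, plus strand, mm10), stood at 2.62, 3.45, 3.96 and 3.62 FPKM in WT 1 to WT 4 and 6.08, 5.18, 5.86 and 6.50 FPKM in OGTBKO 1 to OGTBKO 4. All OGTBKO libraries were above all WT libraries. WT averaged 3.42 ± 0.569 and OGTBKO 5.91 ± 0.549 FPKM, and the gene rose by a log2 of 0.72 ± 0.13 (SE, adjusted p = 0.0103). Leaving out each library in turn gave adjusted p values for Oma1 between 0.0113 and 0.0365. Yme1l1, which encodes the constitutive protease, measured 16.7, 15.3, 18.9 and 14.1 FPKM in WT and 11.6, 12.2, 10.1 and 13.0 FPKM in OGTBKO libraries. The groups did not overlap, and Yme1l1 fell by 0.45 (SE 0.12, adjusted p = 0.0368). That call was kept among the single-library omissions only without WT 4 (adjusted p 0.0561 to 0.104 in the other 7). It was also lost without both libraries numbered 1 (adjusted p = 0.0946) and after trend removal (log2 -0.11, adjusted p = 0.499).

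Fusion genes themselves did not pass. Opa1, the inner membrane fusion dynamin, measured 33.9, 40.3, 54.5 and 39.8 FPKM in WT and 38.7, 38.7, 34.9 and 46.2 FPKM in OGTBKO libraries (log2 -0.07, 95% interval -0.42 to 0.27, adjusted p = 0.786). The direction of the Opa1 difference turned when FPKM was rescaled to each library's total reads, the library total in what follows (log2 0.042). Mfn1, an outer membrane mitofusin, measured 10.3, 11.2, 15.0 and 12.0 FPKM and 11.5, 10.2, 9.24 and 12.2 FPKM (log2 -0.16, 95% interval -0.46 to 0.15, adjusted p = 0.463). For Mfn2, the mitofusin that is much higher in this tissue, the WT values were 45.3, 71.7, 93.5 and 71.1 FPKM and the OGTBKO values 70.7, 49.0, 50.8 and 52.1 FPKM. The libraries numbered 1, which carried the muscle markers, were the lowest of WT and the highest of OGTBKO. The groups overlapped only through WT 1, as OGTBKO 1 at 70.7 FPKM lay just below the other WT libraries. Over all 8 libraries the log2 difference of Mfn2 was -0.31 (95% interval -0.79 to 0.18, adjusted p = 0.357). Without both libraries numbered 1 it was -0.62 (adjusted p = 0.0292).

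Ratios of 2 members within a library do not depend on how libraries were scaled to each other, and are given as a description with no test. They were taken without trend removal, so differences tied to GC content and gene length remain in them. Their size also rests on the gene lengths used, which were the same in both groups. After trend removal the log2 difference was 0.64 for Oma1 and -0.11 for Yme1l1. The ratio of Oma1 to Yme1l1 was 0.157, 0.226, 0.209 and 0.258 in WT and 0.523, 0.425, 0.580 and 0.499 in OGTBKO libraries. The lowest OGTBKO ratio exceeded the highest WT ratio. Oma1 relative to its substrate gene Opa1 stood at 0.0817 ± 0.00823 in WT and 0.150 ± 0.0155 in OGTBKO (SD, n = 4 each). Between fusion and fission, the ratio of Opa1 to Dnm1l lay between 1.31 and 1.90 in WT libraries and between 2.13 and 2.46 in OGTBKO libraries, again apart. The ratio of Mfn2 to Dnm1l overlapped, at 2.59 ± 0.626 and 3.23 ± 0.746. Of the paired DRP1 receptors, Mief2 stood at 2.14 ± 0.163 times Mief1 in WT and at 1.53 ± 0.245 times in OGTBKO. The 21 ratios computed were chosen with the values known, and the groups were apart in 9 and overlapped in 12.

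**Figure D3:**
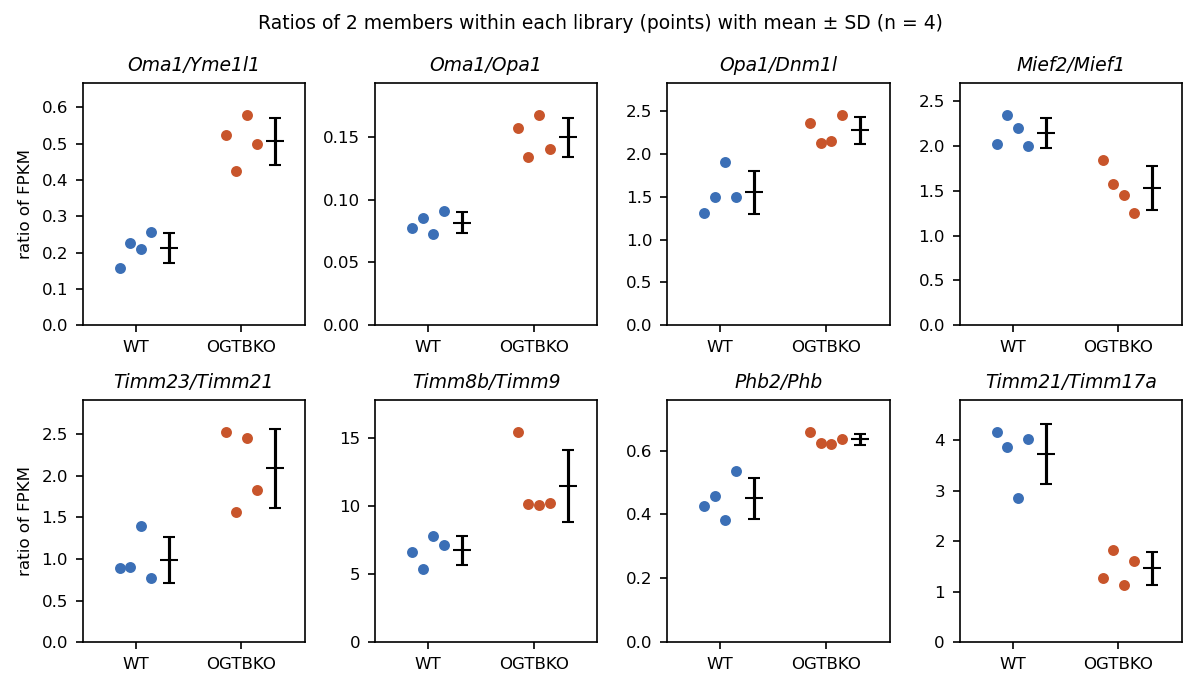
Ratio of the FPKM of 2 members (y axis) within each WT (blue) and OGTBKO (orange) library, with mean ± SD, for 8 of the 21 ratios, picked from the 9 whose groups do not overlap (12 overlap). In the first panel Oma1 relative to Yme1l1 goes from 0.213 ± 0.0421 to 0.507 ± 0.0644.

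The presequence translocase was split. Timm17a and Timm17b encode alternative forms of the subunit that lines the TIM23 channel. Timm17a (chromosome 1, 135295213 to 135313778, minus strand, mm10) measured 6.89, 8.53, 8.92 and 9.30 FPKM in WT and 13.9, 10.5, 13.5 and 13.5 FPKM in OGTBKO libraries. It rose by a log2 of 0.58 ± 0.13 (adjusted p = 0.0198) with no overlap. The Timm17a call was lost without WT 2, OGTBKO 3 or OGTBKO 4 (adjusted p 0.0540 to 0.0628) and without both libraries numbered 1 (adjusted p = 0.0515). Timm17b, on the X chromosome, measured 5.53, 5.30, 4.36 and 4.95 FPKM in WT and 7.29, 6.68, 6.61 and 6.63 FPKM in OGTBKO libraries, also apart. The rise of Timm17b was a log2 of 0.40 ± 0.10 (adjusted p = 0.0268). That call was lost without WT 2, WT 4 or any 1 of the OGTBKO libraries (adjusted p 0.0557 to 0.0686).

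Timm21, whose product links TIM23 to the TOM complex and to respiratory chain assembly, went the other way. Timm21 (ENSMUSG00000024645) measured 28.7, 33.0, 25.6 and 37.4 FPKM in WT and 17.6, 19.3, 15.4 and 21.8 FPKM in OGTBKO libraries. The highest OGTBKO library was below the lowest WT library. The means were 31.2 ± 5.14 and 18.5 ± 2.73 FPKM, a log2 difference of -0.73 ± 0.15 (adjusted p = 0.0153). Leaving out WT 2 gave an adjusted p of 0.0505 for Timm21, the only single-library omission that ended the call. Rescaled to the library total, its adjusted p was 0.0753. The ratio of Timm21 to Timm17a was 3.73 ± 0.589 in WT and 1.46 ± 0.318 in OGTBKO libraries, without overlap. The ratio of the channel gene Timm23 to Timm21 was 0.992 ± 0.275 in WT and 2.09 ± 0.472 in OGTBKO libraries, without overlap.

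Timm23 measured 25.5, 29.8, 35.7 and 29.1 FPKM in WT and 44.6, 30.1, 37.6 and 39.8 FPKM in OGTBKO libraries, overlapping in OGTBKO 2 (log2 0.33, adjusted p = 0.149). Hspa9, the motor chaperone, measured 237, 299, 326 and 295 FPKM in WT and 242, 232, 231 and 239 FPKM in OGTBKO libraries. The OGTBKO values of Hspa9 lay close together, and WT 1 fell among them while the other 3 WT libraries were higher. It did not pass (log2 -0.28, 95% interval -0.55 to -0.01, adjusted p = 0.138), but was called without WT 1 (log2 -0.38, adjusted p = 0.0438). The exchange factors of that chaperone, Grpel1 (36.6 and 31.4 FPKM) and Grpel2 (4.91 and 4.78 FPKM), the receptor Timm50 (32.1 and 32.6 FPKM) and the motor parts Timm44 (26.5 and 27.0 FPKM), Pam16 (14.3 and 12.6 FPKM) and Dnajc19 (6.88 and 7.04 FPKM) had log2 differences between -0.20 and 0.04, none past the test.

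Small TIM chaperones carry hydrophobic proteins across the intermembrane space, TIMM8 paired with TIMM13 and TIMM9 paired with TIMM10. Both called members belonged to the first pair. Timm8b (ENSMUSG00000039016, chromosome 9, 50603910 to 50605320, plus strand, mm10) stood at 58.9, 42.2, 37.2 and 63.6 FPKM in WT and 92.5, 77.8, 98.4 and 86.4 FPKM in OGTBKO libraries. WT spread widely, yet its highest library was under the lowest OGTBKO library. Timm8b rose from 50.5 ± 12.8 to 88.8 ± 8.80 FPKM (log2 0.84 ± 0.18, adjusted p = 0.0183), with the call lost without WT 2 or OGTBKO 3 (adjusted p 0.0575 and 0.0592). Its gene is only 518 bases long in the table, and 15.6% of its exon bases are shared with Nkapd1 on the other strand. Timm13 measured 24.0, 21.4, 17.4 and 21.4 FPKM in WT and 30.4, 27.3, 29.7 and 28.8 FPKM in OGTBKO libraries, with no overlap. It rose by a log2 of 0.46 ± 0.11 (adjusted p = 0.0273). The Timm13 call was lost without WT 2, WT 4, OGTBKO 1, OGTBKO 3 or OGTBKO 4 (adjusted p 0.0545 to 0.0783) and after trend removal (log2 0.19, adjusted p = 0.208).

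The second chaperone pair did not pass. Timm9 had means of 7.59 and 7.96 FPKM and Timm10 of 13.0 and 14.0 FPKM, and the 4 WT values of Timm10 ran from 6.49 (WT 3) to 18.2 FPKM (WT 4). The ratio of Timm8b to Timm9 was 6.75 ± 1.04 in WT and 11.5 ± 2.65 in OGTBKO libraries, without overlap. Timm8a1, the X-linked relative of Timm8b, measured 8.61 ± 1.18 and 8.78 ± 1.24 FPKM (log2 0.03). The TIM22 channel gene Timm22 (7.83 and 7.02 FPKM), its partner Timm29 (22.3 and 21.8 FPKM) and Timm10b (1.21 and 1.39 FPKM) did not pass either.

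At the outer membrane gate, 7 of 8 tested TOM genes had a log2 difference above 0 (Tomm34 turned to -0.029 after trend removal), and 0 passed in limma. Tomm40, the gene of the import pore, measured 6.65, 9.02, 7.18 and 8.12 FPKM in WT and 12.2, 8.52, 11.3 and 10.4 FPKM in OGTBKO libraries. OGTBKO 2 alone lay within the WT range, and the difference did not pass (log2 0.43, 95% interval 0.12 to 0.73, adjusted p = 0.0626), except without OGTBKO 2 (log2 0.52, adjusted p = 0.0441). Tomm20, the presequence receptor, measured 15.7, 15.6, 14.1 and 16.3 FPKM in WT and 16.7, 19.9, 17.8 and 21.3 FPKM in OGTBKO libraries. Those groups were apart by a narrow margin, with a log2 difference of 0.28 (95% interval 0.05 to 0.52, adjusted p = 0.0962), which passed after trend removal (log2 0.40, adjusted p = 0.0297). Tomm70a, the receptor for carrier proteins, was steady in WT at 12.8 ± 0.170 FPKM and measured 13.1 ± 1.30 FPKM in OGTBKO (log2 0.028, adjusted p = 0.866), and passed after trend removal (log2 0.32, adjusted p = 0.0386). The central receptor Tomm22 (40.6 and 43.4 FPKM), the small subunits Tomm5 (49.9 and 55.8 FPKM) and Tomm7 (11.8 and 12.3 FPKM), and cytosolic Tomm34 (4.03 and 4.46 FPKM) differed by a log2 of 0.08 to 0.18. Tomm40l, the second form of the pore, was the 1 gene below 0, at 2.68 and 2.40 FPKM (log2 -0.14).

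Cristae and scaffold genes did not pass in any of the 7 cases. Immt, the core of MICOS known as mitofilin, measured 51.8, 55.9, 60.2 and 53.7 FPKM in WT and 46.6, 50.9, 43.0 and 53.9 FPKM in OGTBKO libraries (log2 -0.19, 95% interval -0.43 to 0.04, adjusted p = 0.239). After trend removal the sign of the Immt difference turned (log2 0.13). The other MICOS genes, Chchd3 (64.7 and 56.1 FPKM), Chchd6 (10.1 and 9.83 FPKM), Apoo (66.8 and 62.6 FPKM) and Apool (15.5 and 14.8 FPKM), had log2 differences between -0.21 and -0.036. Apool turned to 0.11 after trend removal, and Apoo, Apool and Chchd6 to 0.013, 0.037 and 0.074 with the library total. A processed pseudogene of Apoo in the table ranged from 4.78 to 13.6 FPKM, and reads of the pair could be shared.

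The prohibitins, partners in a single ring complex, stood on either side of 0. Phb measured 57.0, 74.2, 76.9 and 68.8 FPKM in WT and 64.0, 56.8, 66.3 and 63.7 FPKM in OGTBKO libraries (log2 -0.14, adjusted p = 0.464). Phb2 measured 24.3, 33.9, 29.4 and 36.9 FPKM in WT and 42.1, 35.4, 41.1 and 40.6 FPKM in OGTBKO libraries (log2 0.36, 95% interval 0.05 to 0.68, adjusted p = 0.103). Neither difference passed. The ratio of Phb2 to Phb was 0.425, 0.456, 0.383 and 0.536 in WT and 0.658, 0.623, 0.621 and 0.637 in OGTBKO libraries, with every OGTBKO library above every WT library.

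Neither the pore of the calcium uniporter nor the regulators Micu2 and Micu3 passed the test. Mcu, the pore, measured 2.28, 2.98, 4.15 and 2.70 FPKM in WT and 3.89, 2.73, 3.44 and 3.70 FPKM in OGTBKO libraries (log2 0.18, 95% interval -0.20 to 0.56). Micu2 measured 12.0 ± 1.66 and 14.2 ± 1.12 FPKM (log2 0.24, adjusted p = 0.189).

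Micu3 measured 3.48, 4.13, 5.23 and 4.26 FPKM in WT and 3.19, 3.57, 3.30 and 4.61 FPKM in OGTBKO libraries (log2 -0.20, adjusted p = 0.379), and its sign turned after trend removal (log2 0.17). Letmd1, an inner membrane protein linked to heat production in brown fat, measured 90.8, 137, 145 and 136 FPKM in WT and 119, 118, 127 and 117 FPKM in OGTBKO libraries. WT 1 stood far below the other WT libraries, and the OGTBKO values lay between (log2 -0.06, 95% interval -0.40 to 0.28, with 0.058 under the library total as denominator). Letm1 (27.4 and 26.3 FPKM), an ion exchanger of the inner membrane, and Letm2 (0.739 and 0.483 FPKM) did not pass. Timmdc1, matched by its name though it encodes an assembly factor of respiratory complex I, measured 15.7 ± 3.01 and 11.1 ± 1.96 FPKM (log2 -0.48, adjusted p = 0.0740). It was called after trend removal (log2 -0.64, adjusted p = 0.0466).

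Calls over all genes varied with base composition and length. All tested genes were cut into 4 bins of about equal size by GC content, and again by length. In the bin lowest in GC content, 14 members included 1 called higher and 5 called lower, where all genes there counted 84 higher and 581 lower. In the bin highest in GC content, 7 members included 1 higher, Timm13, and 1 lower, Mief2, against 456 higher and 65 lower over all genes. The members' median log2 differences by rising GC bin were -0.13, 0.027, -0.036 and 0.028, and those of all genes -0.19, -0.045, 0.069 and 0.16, a difference that was not tested. In the bin of the longest genes, 11 members included 1 higher and 3 lower, against 95 and 426 over all genes. Among the shortest 13 members included 2 higher and 1 lower, against 422 and 132. After trend removal, 9 of the 55 members were called, 5 higher and 4 lower, where 10.5% of all genes were (6.24% higher and 4.29% lower). The 6 calls that remained were Timm17a, Timm8b, Oma1, Dnm1l, Timm21 and Mief2. Timm17b, Timm13, Mff, Mtfr1 and Yme1l1 were among the calls lost, and Tomm20, Tomm70a and Timmdc1 were added. With the library total as the denominator, a scaling that moved the median of all genes to a log2 of 0.09, 4 members were called, Timm17a, Timm8b and Oma1 higher and Dnm1l lower, where 9.33% of all genes were (7.44% higher and 1.89% lower).

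**Figure D4:**
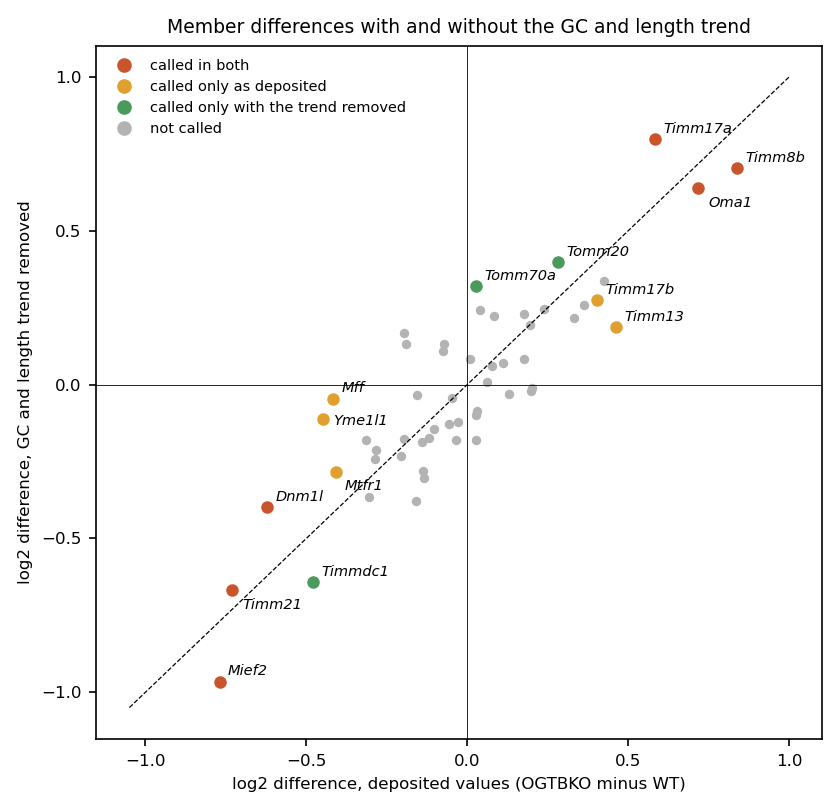
Log2 difference (OGTBKO minus WT) of 54 of the 55 tested members with the deposited values (x axis) and after trend removal for GC content and length (y axis), with a dashed line of equality. Mff and Yme1l1 move close to 0 on the y axis, at -0.045 and -0.11, while Mief2, Timm21, Dnm1l, Oma1, Timm8b and Timm17a are called on both axes.

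Other genes of these pathways, from a list of 65 found in the table, included 9 that rose and 2 that fell of 63 tested, beside the 15.6% of all genes called. Slc25a46, an outer membrane protein that acts on fusion and cristae, measured 31.9, 34.9, 32.4 and 33.1 FPKM in WT and 19.8, 20.9, 16.8 and 20.7 FPKM in OGTBKO libraries. The groups were far apart, and Slc25a46 fell by 0.75 (SE 0.10, adjusted p = 0.00403). Gfer, the sulfhydryl oxidase of the disulfide relay that folds small TIM proteins, measured 7.92, 4.88, 7.50 and 5.03 FPKM in WT and 12.9, 11.6, 13.0 and 11.3 FPKM in OGTBKO libraries. Gfer rose by a log2 of 0.92 ± 0.16 (adjusted p = 0.0101). Msto1, linked to fusion, rose from 1.08 ± 0.122 to 1.98 ± 0.231 FPKM (adjusted p = 0.0110). These 3 calls held with each single library left out and after trend removal.

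Of the processing and folding genes 3 of 12 rose: Pmpcb, a subunit of the peptidase that clips presequences, from 25.5 ± 4.16 to 37.5 ± 3.89 FPKM (adjusted p = 0.0277), the chaperone escort gene Dnlz (log2 0.48) and Dnajc11 (log2 0.41). Intermembrane relay and sorting had 1 of 16 higher, Gfer, and 1 lower, Mtx3 (log2 -0.46). Of 10 other MICOS and cardiolipin genes 3 rose, the scaffold Stoml2 (log2 0.52), the lipid transfer gene Triap1 (log2 0.74) and Pgs1 of cardiolipin synthesis (log2 0.42). In 8 quality control proteases 1 rose, Htra2 of the intermembrane space (log2 0.58). Other uniporter parts had 0 of 4 called in limma, and other regulators of fission and fusion 1 higher and 1 lower of 13. At an unadjusted p under 0.05 the uniporter parts also had 0, again with no share of all genes counted. The calls of Dnajc11 and Pgs1 ended in all 8 fits with a library left out (adjusted p 0.0504 to 0.122 and 0.0521 to 0.112). The other 6 lost theirs without WT 2 and without OGTBKO 3, and all of these but Mtx3 also without OGTBKO 4. Stoml2 lost it without WT 4 or OGTBKO 1 too, Triap1 without WT 4 or OGTBKO 2, and Pmpcb without OGTBKO 2 (adjusted p 0.0529 to 0.108 over these fits). After trend removal, Dnlz, Mtx3, Pgs1, Triap1, Stoml2 and Htra2 were no longer called (adjusted p 0.0629 to 0.185).

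Single libraries differed in how they placed the members. WT 1 held the lowest WT value in 34 of the 55 tested members and the highest in 5. WT 2 was lowest in 2 and WT 4 in 3. OGTBKO 2 was lowest of its group in 22 members, and OGTBKO 1 and OGTBKO 4 were each highest in 22. Without both libraries numbered 1, 12 members (21.8% of those tested) and 14.6% of all genes were called. Of these 12 members, 9 were called as before. Timm17a, Mff and Yme1l1 lost the call, and Mief1, Mfn2 and Timmdc1 gained it, all 3 lower. Summed over all 59 genes, the level was 1337, 1594, 1574 and 1618 FPKM in WT and 1498, 1388, 1443 and 1526 FPKM in OGTBKO libraries, with WT 1 below and the other WT libraries above the OGTBKO range.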

How the data were processed

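RNA from brown adipose tissue of 8 samples was sequenced, with libraries from a NEBNext Ultra RNA kit per the labels' protocols. HISAT2 2.0.5, featureCounts 1.5.0-p3 and the build mm10 are named per the submitters' processing notes, and the strand setting is not given in the sources used here. The authors deposited FPKM values in 1 table for all genes. Multiplied by gene length, these were whole multiples of 1 read (tolerance 0.001) in 100% of values, with denominators 0.790 (WT 3) to 1.13 (OGTBKO 3) times the library total, so values are already scaled between libraries. For a gene of 1 kb, 1 read equalled 0.0556 to 0.0945 FPKM. Intervals cover only the spread between libraries, which may be technical. Mitochondrial-genome genes took 27.2% to 39.4% of reads in WT and 25.2% to 30.2% in OGTBKO libraries. GENCODE M21 held 99.8% of the gene identifiers, 98.1% at identical coordinates, and all 59 members were among those found. Values were tested as log2(FPKM + 0.5), which understates changes of low genes, with the limma package (3.58.1, R 4.3.3; two-sided moderated test, mean-variance trend, no covariates), with Benjamini-Hochberg adjustment over the 13171 genes with a mean of at least 0.5 FPKM. Every adjusted p is from that test or its named alternative. FPKM is not a count, so no count model was used, apart from voom (in limma) on the back-calculated reads as an alternative. Steps were tested on simulated data. GC content was that of the longest transcript, and trends in GC and length were removed with splines. Values in every library are given for members with adjusted p under 0.05 and for Tomm20, Tomm40, Timm23, Hspa9, Immt, Mcu, Micu3, Letmd1, Mfn1, Mfn2, Opa1, Oma1, Dnm1l, Phb and Phb2, and other genes of the pathways could be named if called or, up to 4 a list, by smallest p, and only called ones are. The values of 1 called member are not reported here, though counts include it. The members and lists were chosen with earlier results of these data known. Marker sums were compared by an exact permutation test over the 70 assignments. Alternatives were the pseudocount, the filter, the denominator, trend, weights, voom, the replicate block, removal of GC and length trends, and omission of libraries.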

Additional observations from a re-analysis of the deposited data

Results flagged for a closer look

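Of 110 groups of 4 libraries looked at (2 for each tested member), 8 held a library set far apart from the other 3 for their range, where chance gives about 1 in 20. In WT 1, Timm44 was low at 22.1 FPKM (the others 27.5 to 28.2 FPKM) and Letmd1 at 90.8 FPKM (136 to 145 FPKM). OGTBKO 1 was high for Letm1 at 32.1 FPKM (23.9 to 24.9 FPKM), Mfn2 at 70.7 FPKM (49.0 to 52.1 FPKM) and Timm17b at 7.29 FPKM (6.61 to 6.68 FPKM), and low for Tomm34 at 3.65 FPKM (4.67 to 4.84 FPKM). Timm17a was low in OGTBKO 2 at 10.5 FPKM (13.5 to 13.9 FPKM), and Letmd1 was high in OGTBKO 3 at 127 FPKM (117 to 119 FPKM). Of the 8, 6 lay in the libraries numbered 1, which held the skeletal muscle markers. Their part in these values was not tested.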

How the results depend on the processing

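Of the 12 members called, 12 remained called with a pseudocount of 0.1 or 1, a filter at 1 FPKM, array weights or voom. With the replicate number of the labels as a block (replicate block), 4 were called, and 3 with the block and the trend removed together, against 888 and 523 of all genes and 5 and 3 of the other pathway genes. Both together ended the calls of Dnm1l, Oma1 and Timm8b (adjusted p 0.0722, 0.0635 and 0.0620). Deviations of same-numbered libraries correlated at 0.220, 0.169, 0.0143 and -0.00696, and 4 of 8 libraries correlated best with their own number. These values do not settle whether the numbers pair the samples. With the library total as denominator 4 members, 6 other pathway genes and 1229 genes were called; the split over all genes was 980 higher and 249 lower against 1068 and 982. No filter on low values gave 6 other pathway genes and 8 members. In that fit 1229 of all genes were called as well, but of 26825 genes (4.58%). Array weights gave 23 other pathway genes and 3516 genes. Removing the trend gave 6 other pathway genes, not all of them among the 11 called before. Leaving out 1 library gave between 2 and 11 members, 3 and 14 other pathway genes, and 694 and 2115 genes, with ends from different fits. Members were fewest without WT 2 (2) and OGTBKO 3 (3). The shares of members and of all genes were 3.64% and 5.85% without WT 2, and 5.45% and 5.27% without OGTBKO 3. Without WT 1, where members were most, they were 20% and 15.6%. The sign turned for 10 tested members with the trend removed and for 7 with the library total, 0 of them called. Among those given by library, the log2 difference turned above 0 with the trend removed, with or without the block, for Micu3 (0.17), Immt (0.13) and Opa1 (0.13), with the library total for Letmd1 (0.058) and Opa1 (0.042), and without WT 3, where leaving out 1 library gave -0.21 to 0.013 for Letmd1 and -0.17 to 0.056 for Opa1. The cause was not tested. Alternatives chosen after seeing the data were the fit without both libraries numbered 1 and the total of reads outside mitochondrial-genome genes as denominator. The latter gave 10 members, where 14.2% of all genes were called. With 4 libraries a group, smaller differences than those called may go undetected.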
